A study of Drosophila melanogaster with 8 samples.

Results

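The comparison set 3 libraries of male fruit flies fed fat-enriched food against 1 library of male flies on a normal diet (ND). These 4 libraries are the males among 8 in all. They were chosen by their label of sex and were all kept. The fat-enriched groups were the high-fat diet alone (HFD), that diet plus quercetin glucoside, a plant flavonol joined to a sugar (HFD+QG), and that diet plus epigallocatechin gallate, the catechin typical of green tea (HFD+EGCG). Each group was Canton S, a common laboratory wild-type strain of Drosophila melanogaster. Feeding on the test food lasted 7 days and was followed by 2 h on standard food, and RNA came from adults aged 15 days whose wings and legs had been taken off. Dose and fat content are not given in the sources used here, and neither is the number of flies in a library. No group carried a mutation or transgene. Because QG and EGCG also differ between the high-fat libraries, the range of the 3 holds any effect of these compounds as well as the spread between samples.

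Flies digest starch and disaccharides with amylases and maltases that the midgut secretes, and dietary fat with gut lipases. Absorbed sugar is turned into fat or glycogen largely in the fat body, the fly's counterpart of liver and adipose tissue, which also secretes antimicrobial peptides into the blood. Carbohydrase genes of the gut are known to be set by the nutrients of the food.

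The values were FPKM, fragment numbers adjusted for the length of the transcript and the size of the library, which the authors had rounded to whole numbers. They were summed per gene, and differences are given on the log2(FPKM + 1) scale, which understates changes of low genes. Genes with at least 10 FPKM in at least 1 male library entered, 8363 in all, of which 8032 code for proteins. Summed FPKM lay between 927015 and 1000513 in the high-fat libraries and was 938655 in ND. Read depth is unknown. Yp1, which encodes yolk protein, stood at a listed 0 in all 4 male libraries and the accessory gland gene Mst57Db had 34231, 27482 and 27656 FPKM on HFD, HFD+QG and HFD+EGCG, against 39016 on ND, which fits the label of sex. Body RNA mixes tissues, so fewer cells of a type and less RNA per cell cannot be told apart in any of the values below.

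The high-fat libraries lay closer to each other than to ND. The median absolute log2 difference over genes was 0.18 between HFD and ND, 0.18 between HFD+QG and ND and 0.23 between HFD+EGCG and ND, against 0.10 to 0.14 between high-fat libraries. At least 2-fold differences from ND were counted for 59 higher (0.705% of genes tested) and 145 lower genes (1.73%) on HFD, 42 higher (0.502%) and 146 lower (1.75%) on HFD+QG, and 74 higher (0.885%) and 116 lower (1.39%) on HFD+EGCG. Between pairs of high-fat libraries 90 to 108 genes differed that much. A gene was taken to hold when each of the 3 high-fat libraries was at least 2-fold from ND on the same side. There were 22 such genes higher than ND, 0.263% of the genes tested, and 53 lower, 0.634%. Among them 14 of the higher and 50 of the lower genes code for proteins, and 6 of the higher ones are small nucleolar RNAs. With the smaller demand that all 3 lay on one side, 2902 genes (34.7%) were above ND and 2017 (24.1%) below.

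With 1 ND library, an exact permutation test of a single gene cannot go below a p of 0.25, or 0.5 when a one-sided p is doubled. limma was fitted across all genes with the ND library assumed to vary like the 3 high-fat ones. It passed 0 genes at an adjusted p of 0.05 (0% of those tested; lowest adjusted p 0.133), with 2059 genes at an unadjusted p under 0.05. Of these, 1326 were higher and 733 lower than ND. A fit of all 8 libraries with the contrast taken within males, in which the female libraries add to the estimate of spread, passed 382 higher (4.57%) and 200 lower genes (2.39%). Its male change comes from the same 4 libraries by which the held genes were chosen, so its calls among them are no separate support. Of its 8363 genes, 6123 reached 10 FPKM in both sexes. Many male genes are at 0 in the female libraries, which lowers the estimated spread and makes calls easier. The third fit was additive over both sexes, the one in which ND has 2 libraries. It passed 363 higher (5.93%) and 191 lower genes (3.12%) of 6123 with at least 10 FPKM in each sex. Its log2 change lies midway between the male and the female one. Below, "rose" and "fell" are used for genes that passed this additive fit, and values are given for the others.

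**Figure D1:**
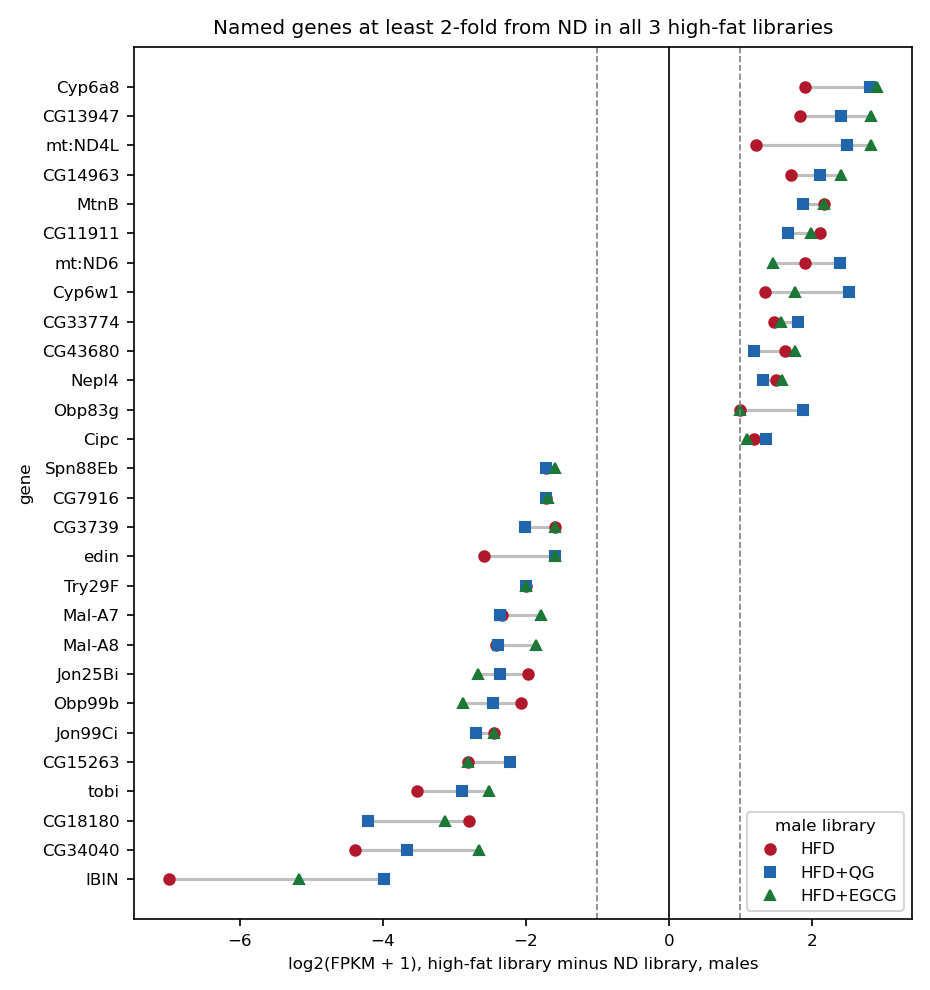
Each row is a gene and each symbol 1 male high-fat library, placed by its log2(FPKM + 1) minus that of the ND library, with grey bars spanning the range of the 3 and dashed lines at 2-fold. The 13 higher genes lie between 1.00 and 2.91 and the 15 lower genes between -1.58 and -6.98, where IBIN has the widest range.

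Genes that digest starch and sugar were lower in every high-fat library. Of 13 carbohydrase genes tested, 12 were below ND in all 3 libraries and 8 held a 2-fold difference, and 7 fell in the additive fit. Their median log2 difference was -1.84 on HFD, -1.56 on HFD+QG and -1.12 on HFD+EGCG, beside medians of 0.09, 0.00 and 0.00 over all genes. Over all genes, 24.1% were below ND in all 3 libraries and 34.7% above, and 0.634% held lower and 0.263% higher. In the additive fit 3.12% fell and 5.93% rose. Counts of list members here and below stand beside these shares. tobi (3R:25344761-25346921), an alpha-glucosidase known as a target of brain insulin, had 23, 36 and 47 FPKM on HFD, HFD+QG and HFD+EGCG, against 273 on ND. All 3 high-fat values lay far below the ND one. The additive fit gave tobi a log2 change of -3.12 (SE 0.26; limma, adjusted p 0.00363).

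Maltases split disaccharides into glucose, and the Mal-A genes among them lie in a run on chromosome 2R. Within 2R:8449664-8473961, 6 of 8 protein-coding genes tested held a 2-fold lower level, namely Mal-A1, Mal-A3, Mal-A4, Mal-A6, Mal-A7 and Mal-A8. The stretch was drawn from the first to the last neighbour that held, so the share inside it is a description only. Mal-A1 had 182, 204 and 458 FPKM on HFD, HFD+QG and HFD+EGCG, against 921 on ND. Mal-A6 had 64, 66 and 136 FPKM in the same libraries, against 369 on ND. The HFD+EGCG library was the highest of the high-fat libraries for both, and still under ND. Mal-A7 had 40, 39 and 59 FPKM, against 205 on ND, and its neighbour Mal-A8 had 39, 40 and 58 FPKM, against 213 on ND. Both fell in the additive fit, with a log2 change of -1.85 for Mal-A7 (SE 0.30; limma, adjusted p 0.0198) and of -1.94 for Mal-A8 (SE 0.25; limma, adjusted p 0.0115). Mal-A4 had 13, 24 and 23 FPKM, against 73 on ND, and also fell. Mal-A1 missed the threshold in that fit (limma, adjusted p 0.0514). Mal-A3, at 14, 16 and 16 FPKM against 36 on ND, was far from passing (limma, adjusted p 0.623). Its mean log2 difference was -1.18 in males and 0.60 in females. Mal-A5 was the list's one gene above ND, at 59, 49 and 51 FPKM on the high-fat diets and 37 on ND. Mal-B1 on chromosome 2L, outside the run, had 20, 33 and 52 FPKM, against 70 on ND, and did not hold 2-fold. Reads of near-identical maltases may have been divided between them by the authors' software, so single members are less certain than the run.

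The amylases, which cut starch, were lower too. Amy-p (2R:17118636-17120303) had 310, 375 and 464 FPKM on HFD, HFD+QG and HFD+EGCG, against 1110 on ND, and fell by 1.52 in the additive fit (SE 0.17; limma, adjusted p 0.00881). Its near copy Amy-d had 180, 150 and 168 FPKM, against 258 on ND. Amy-d fell in the additive fit but was less than 2-fold lower in each male library. Over the 13 genes of the list, the HFD+EGCG library was the highest of the 3 high-fat libraries for 9 and the HFD library the lowest for 10. Over all genes tested, HFD was the highest of the 3 for 42.6% and the lowest for 17.4%, HFD+QG for 17.8% and 19.8%, and HFD+EGCG for 20.8% and 43.9%. Since each diet has 1 library, the order of libraries was not tested here or in the lists below.

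**Figure D2:**
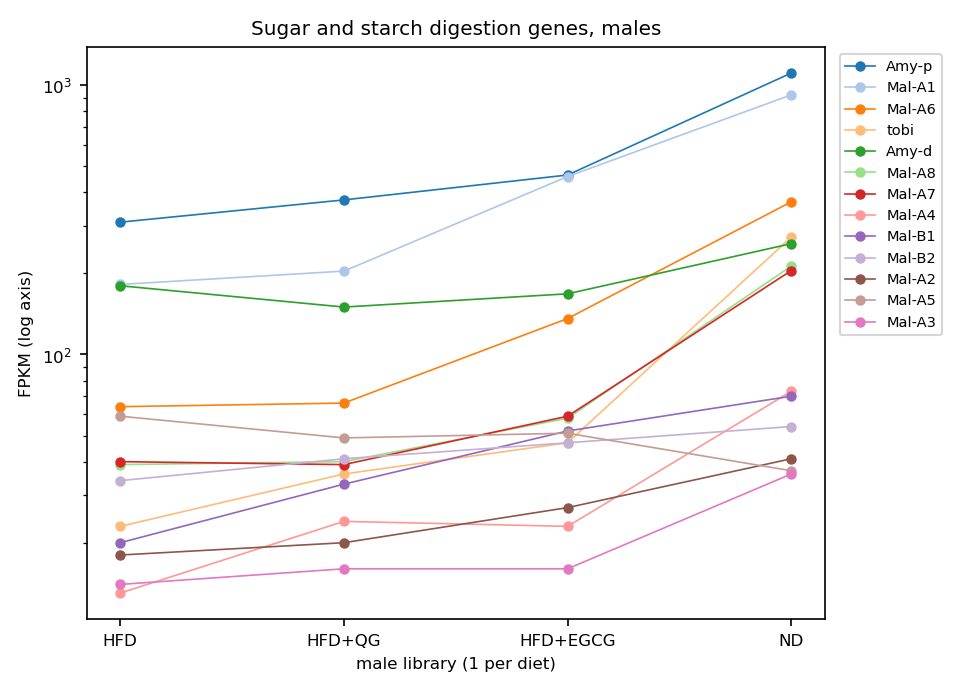
FPKM on a log axis of the 13 carbohydrase genes tested, 1 line per gene, in the male HFD, HFD+QG, HFD+EGCG and ND libraries. Each line is highest at ND except that of Mal-A5, which has 59, 49 and 51 FPKM on the high-fat diets and 37 on ND.

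Genes that take up or use sugar were mixed, with a few clear members. Sodh1, a sorbitol dehydrogenase that turns sorbitol into fructose, had 58, 65 and 51 FPKM on HFD, HFD+QG and HFD+EGCG, against 191 on ND, and fell by 1.47 in the additive fit (SE 0.18; limma, adjusted p 0.0104). It was the only one of 23 sugar metabolism genes to hold 2-fold, 12 of which were below ND in all 3 libraries and 6 above. fbp, the fructose-bisphosphatase of gluconeogenesis, had 51, 56 and 54 FPKM, against 87 on ND. Tps1, which makes trehalose, the main blood sugar of insects, had 203, 241 and 229 FPKM, against 305 on ND. PyK, the pyruvate kinase of glycolysis, stood at 477, 473 and 479 FPKM on the high-fat diets and 483 on ND, a difference smaller than 0.04 on the log2 scale in each library. Of 11 genes with a sugar transporter domain in the deposited annotation, 7 were below ND in all 3 libraries. That list was added after the values were seen. Its members CG6484 and CG1208 held 2-fold. CG6484 had 9, 10 and 17 FPKM, against 48 on ND, and CG1208 had 9, 10 and 10 FPKM, against 22 on ND. Glut1, a glucose transporter, had 10 FPKM in each high-fat library and 14 on ND.

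Lipases and serine proteases of the gut were split between genes far below ND and abundant genes near it. CG8093, a lipase gene, had 39, 35 and 33 FPKM on HFD, HFD+QG and HFD+EGCG, against 116 on ND, and fell by 2.09 in the additive fit (SE 0.23; limma, adjusted p 0.00881). The gut lipase gene mag had 82, 53 and 64 FPKM, against 137 on ND, and CG6283 had 138, 114 and 178 FPKM, against 263 on ND. Both fell in the additive fit. The most abundant lipase of the list, CG6295, went the other way in males, with 515, 430 and 526 FPKM on the high-fat diets and 378 on ND. Of 8 lipases 5 were below ND in all 3 libraries and 1 above.

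Of 27 digestive serine proteases, 11 were below ND in all 3 libraries and 3 above, with 3 holding 2-fold lower and 5 falling in the additive fit. Among all genes tested, 24.1% were below, 34.7% above, 0.634% held lower and 3.12% fell. Jon99Ci (3R:29925226-29926189), of the Jonah family of midgut proteases, had 12, 10 and 12 FPKM on HFD, HFD+QG and HFD+EGCG, against 70 on ND. It fell by 3.10 in the additive fit (SE 0.24; limma, adjusted p 0.00327). Jon25Bi had 33, 25 and 20 FPKM, against 132 on ND, and fell by 3.18 (SE 0.34; limma, adjusted p 0.00786). In males alone the mean log2 differences were smaller, at -2.53 for Jon99Ci and -2.33 for Jon25Bi, against -3.67 and -4.03 in females. The more abundant Jon99Cii and Jon25Biii also fell in the additive fit. In males they had 373, 175 and 243 FPKM against 627 on ND, and 347, 259 and 319 FPKM against 553 on ND. Ser8 had 13, 8 and 13 FPKM, against 40 on ND. alphaTry, one of the most abundant trypsins, overlapped ND, with 2373, 1707 and 2964 FPKM on the high-fat diets and 2675 on ND. The list's median was -0.17 on HFD, -0.48 on HFD+QG and 0.08 on HFD+EGCG, so its sign depended on the library. Members of the Jonah and trypsin families share sequence, and their single values carry that uncertainty. Among other peptidases, CG18180 had 23, 8 and 18 FPKM, against 165 on ND, and fell, while CG11911 had 293, 214 and 270 FPKM, against 67 on ND, and rose by 1.83 (SE 0.14; limma, adjusted p 0.00327). Both carry the S1A serine peptidase annotation in the deposited tables. CG3739, annotated as a peptidase of family S28, had 47, 35 and 47 FPKM, against 144 on ND, and fell as well. Try29F, a trypsin gene, had 3 FPKM in each high-fat library and 15 on ND.

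Genes of fatty acid synthesis were mostly lower, by less than 2-fold. Of 17 tested, 11 were below ND in all 3 libraries, 4 above and none held 2-fold in either direction. The list's median was -0.38 on HFD, -0.25 on HFD+QG and -0.33 on HFD+EGCG. ACC, which makes malonyl-CoA, had 68, 97 and 100 FPKM on HFD, HFD+QG and HFD+EGCG, against 134 on ND. FASN1, the main fatty acid synthase, had 152, 236 and 240 FPKM, against 267 on ND. For both genes HFD alone was the lowest library, and the libraries with a compound lay between it and ND. Desat1, the fatty acid desaturase that sets the first double bond, had 946, 1036 and 979 FPKM, against 1374 on ND, with little spread among the high-fat libraries. FASN2, a synthase known for cuticle lipids of oenocytes, was above ND, at 92, 111 and 116 FPKM against 76. It rose in the additive fit (limma, adjusted p 0.042), which pools the sexes. Its mean log2 difference was 0.47 in males and 2.14 in females. Insulin pathway genes had 8 of 11 members below ND in all 3 libraries and none above. The FOXO target Thor, a translation repressor, had 549, 580 and 541 FPKM, against 708 on ND, and foxo itself had 19, 16 and 15 FPKM, against 23 on ND.

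Genes with a juvenile hormone binding domain were lower in part. The list was added after the values were seen, so its counts are a description only. Of 19 genes with a haemolymph juvenile hormone binding domain in the deposited annotation, 11 were below ND in all 3 libraries, 2 above, and 4 held 2-fold lower. Of those 4, 3 are neighbours that fill 2L:13843915-13849223. CG8997 had 165, 168 and 207 FPKM on HFD, HFD+QG and HFD+EGCG, against 559 on ND. CG7916 had 49, 49 and 50 FPKM, against 163 on ND. CG7953 had 97, 103 and 126 FPKM, against 329 on ND. They are the only protein-coding genes tested in that stretch, which was drawn from the first to the last neighbour that held. Their mean log2 differences were -1.64 for CG8997, -1.70 for CG7916 and -1.60 for CG7953. The high-fat libraries nearly coincided for CG7916, while HFD+EGCG was the highest for the other pair. CG7916 fell in the additive fit (limma, adjusted p 0.0361), which the other pair did not pass. The fourth gene, CG11854, had 5, 5 and 4 FPKM, against 15 on ND. A feeding and clock gene of this family, to (takeout), had 278, 216 and 168 FPKM, against 415 on ND.

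Among fat body genes, Lsp1beta, a larval storage protein, had 15, 24 and 19 FPKM on HFD, HFD+QG and HFD+EGCG, against 71 on ND, and CG34166, a small gene of unnamed function, had 121, 201 and 135 FPKM, against 560 on ND. Both fell in the additive fit, with a log2 change of -3.07 for Lsp1beta (SE 0.52; limma, adjusted p 0.0218) and of -2.97 for CG34166 (SE 0.43; limma, adjusted p 0.0167). In males alone the mean log2 differences were -1.85 for Lsp1beta and -1.91 for CG34166, against -4.29 and -4.03 in females. apolpp, the main lipid carrier of fly blood, had 129, 131 and 101 FPKM, against 211 on ND. The 7 fat body marker genes had a median of -0.54 on HFD, -0.41 on HFD+QG and -0.49 on HFD+EGCG, with 4 below ND in all 3 libraries and 1 above. CG34166 and Desat1 are among the 7. Their part in the lower fatty acid, storage protein and immune genes was not tested. smp-30, a regucalcin-like gene picked after its values were seen, had 104, 99 and 100 FPKM, against 252 on ND, and fell by 1.20 in the additive fit (SE 0.10; limma, adjusted p 0.0034). The odorant-binding genes Obp99b (20, 15 and 11 FPKM, against 87 on ND) and Obp99d (3, 3 and 5 FPKM, against 11 on ND) are neighbours that held. They bound the stretch 3R:29714505-29716896. CG15263 had 5, 8 and 5 FPKM, against 41 on ND. CG34040 had 2, 4 and 9 FPKM, against 62 on ND, and fell in the additive fit (limma, adjusted p 0.0198). The seminal fluid gene Acp54A1 had 1376, 825 and 1197 FPKM, against 3015 on ND, and was the single accessory gland gene of 63 to hold. Ugt35C1, a sugar-conjugating detoxification enzyme, had 15 FPKM in each high-fat library and 34 on ND.

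Immune genes were lower in most cases and differed widely between the high-fat libraries. Of 34 antimicrobial peptide and other immune effector genes, 20 were below ND in all 3 libraries, 2 above, and 4 held 2-fold lower. None of the 4 passed the additive fit. IBIN, a short peptide gene induced by infection, had 1, 15 and 6 FPKM on HFD, HFD+QG and HFD+EGCG, against 252 on ND, the largest difference of the named genes. Its log2 difference ran from -6.98 on HFD to -3.98 on HFD+QG, and limma over the male libraries gave a mean of -5.38 (SE 1.44; adjusted p 0.176). The antibacterial Diptericin gene DptA had 19, 37 and 12 FPKM, against 99 on ND. Drosocin, Dro, had 17, 107 and 30 FPKM, against 223 on ND. edin, another infection-induced secreted peptide gene, had 1, 3 and 3 FPKM, against 11 on ND. Spn88Eb, a serpin gene outside the list, had 10, 10 and 11 FPKM, against 35 on ND.

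The HFD+QG library was the highest of the 3 for 19 of the 34 genes and the HFD library the lowest for 25, beside 17.8% and 17.4% of all genes. In Mtk, the gene of the antifungal peptide Metchnikowin, this put HFD+QG above ND, with 79, 535 and 129 FPKM on HFD, HFD+QG and HFD+EGCG and 350 on ND. DptB did the same, with 20, 101 and 17 FPKM and 74 on ND. IM18 kept below ND, with 130, 277 and 100 FPKM against 345. Drs, the Drosomycin gene of the Toll pathway, was above ND in each, with 172, 208 and 207 FPKM against 157, and rose in the additive fit (limma, adjusted p 0.0392). The median of the list was -0.76 on HFD, -0.23 on HFD+QG and -0.39 on HFD+EGCG. The 5 lysozymes had the other direction. All 5 were above ND in all 3 libraries, with LysD at 2322, 1949 and 2310 FPKM against 1402 on ND, LysC at 2007, 2028 and 2587 FPKM against 1371 on ND, and LysP at 321, 410 and 478 FPKM against 217 on ND. Fly lysozymes of this cluster are known as digestive enzymes of the gut. LysP rose in the additive fit (limma, adjusted p 0.0167). The coordinates of LysC and LysD overlap (3L:1210485-1210726 and 3L:1210717-1211196), so their values may not be separate. In females the median of the 5 was -0.12, with 1 above ND in all 3 libraries and 0 below.

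**Figure D3:**
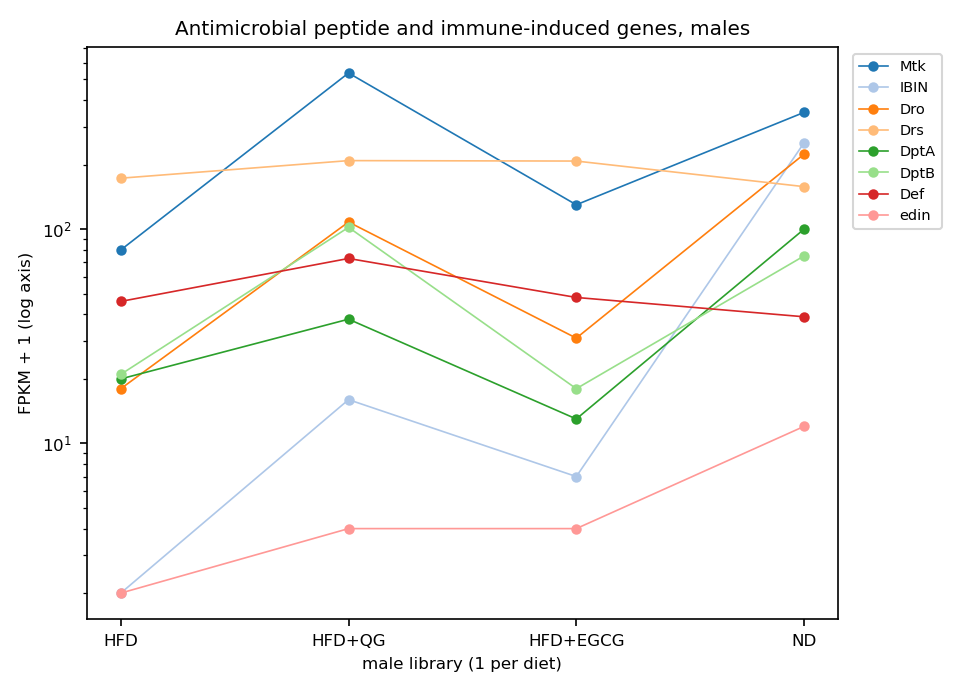
FPKM + 1 on a log axis of 8 immune genes in the male HFD, HFD+QG, HFD+EGCG and ND libraries, 1 line per gene. IBIN, Dro, DptA and edin are highest on ND, Mtk and DptB are highest on HFD+QG, and Drs and Def are lowest on ND.

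Haemocyte markers, which stand for the blood cells that share the immune genes, had a median of -0.38 on HFD, -0.12 on HFD+QG and -0.19 on HFD+EGCG over 7 genes, with 5 below ND in all 3 libraries and none above. Their part in the immune values was not tested.

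Fewer protein-coding genes were higher, and detoxification enzymes and metal-binding proteins were among them. MtnB (3R:20503102-20503746), a metallothionein that binds copper and cadmium, had 448, 367 and 451 FPKM on HFD, HFD+QG and HFD+EGCG, against 99 on ND. It rose by 2.06 in the additive fit (SE 0.27; limma, adjusted p 0.0116). MtnA, an abundant member of the family, had 3461, 3705 and 3481 FPKM, against 2640 on ND, and rose as well. MtnE had 213, 117 and 152 FPKM, against 110 on ND. Of 6 metallothioneins 3 were above ND in all 3 libraries and 1 below. The cytochrome P450 gene Cyp6a8 had 14, 27 and 29 FPKM, against 3 on ND, and Cyp6w1 had 161, 366 and 217 FPKM, against 63 on ND. In both, the libraries with a compound exceeded HFD alone, and neither passed the additive fit (limma, adjusted p 0.0861 and 0.0934). P450 genes as a list did not share this direction, since 21 of 52 were below ND in all 3 libraries and 13 above. Cyp309a1 was lower, with 6, 7 and 13 FPKM against 34 on ND, and fell (limma, adjusted p 0.022).

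Several higher genes have no named function. CG13947 had 202, 302 and 403 FPKM on HFD, HFD+QG and HFD+EGCG, against 56 on ND. CG14963, whose product carries an insect allergen-related domain, had 58, 77 and 95 FPKM, against 17 on ND, and rose by 2.70 in the additive fit (SE 0.28; limma, adjusted p 0.00645), with a mean of 2.08 in males alone. CG43680 had 126, 93 and 139 FPKM, against 40 on ND, and rose too. CG33774, annotated as an oligosaccharyltransferase subunit, which attaches sugar chains to new proteins, had 60, 76 and 64 FPKM, against 21 on ND. Nepl4, a neprilysin-like peptidase, had 16, 14 and 17 FPKM, against 5 on ND, and Cipc, a gene named for a clock-interacting protein, had 15, 17 and 14 FPKM, against 6 on ND. Both rose in the additive fit. Obp83g, with 5, 10 and 5 FPKM against 2 on ND, is at the edge of the 2-fold rule and of the rounding. The heat shock genes Hsp83 (509, 539 and 584 FPKM, against 325 on ND) and Hsc70-4 (2114, 2048 and 2237 FPKM, against 1543 on ND), both abundant chaperones, were above ND by less than 2-fold.

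Genes of mitochondrial respiration were mostly higher, by a small margin. Of 88 nuclear genes of the respiratory chain, 70 were above ND in all 3 libraries and 1 below, beside 34.7% and 24.1% of all genes. Their median was 0.40 on HFD, 0.30 on HFD+QG and 0.29 on HFD+EGCG, and 48 of the 67 that were tested in both sexes rose in the additive fit. That fit pools the sexes, with a list median of 0.34 in males and 0.42 in females, so the count is not one for males alone. SdhB of succinate dehydrogenase had 599, 526 and 493 FPKM on HFD, HFD+QG and HFD+EGCG, against 393 on ND. ND-24 of complex I had 349, 319 and 282 FPKM, against 215 on ND, COX4 of cytochrome c oxidase had 707, 666 and 664 FPKM, against 547 on ND, and ATPsynbeta of the ATP synthase had 626, 588 and 600 FPKM, against 536 on ND. For 79 of the 88 genes HFD was the highest of the high-fat libraries, as it was for 42.6% of all genes.

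The exceptions were mostly duplicates. Of 16 genes whose symbol is that of another gene followed by L or L2, a split made after the values were seen, 3 were above ND in all 3 libraries, and their median was 0.17 on HFD, 0.07 on HFD+QG and -0.15 on HFD+EGCG. Of the other 72 genes 67 were above, with medians of 0.43, 0.32 and 0.31. COX4L, the duplicate of COX4, had 141, 125 and 104 FPKM, against 126 on ND. Just 1 of the 16 duplicates reached 10 FPKM in a female library, while 66 of the other 72 did. Testis marker genes followed the same order of libraries. Their median was 0.04 on HFD, -0.15 on HFD+QG and -0.44 on HFD+EGCG over 31 genes, HFD+EGCG was the lowest of the high-fat libraries in 30 of the 31 (43.9% of all genes), and none was above ND in all 3. The sperm tail gene dj had 110, 77 and 62 FPKM, against 113 on ND, Mst84Da, a sperm flagellum gene, had 457, 353 and 254 FPKM, against 477 on ND, and the testis tubulin betaTub85D had 391, 339 and 289 FPKM, against 336 on ND. The part of testis RNA in the values of the duplicates was not tested.

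Genes encoded in mitochondrial DNA were above ND in 10 of 13 cases and below in none. mt:CoIII, the most abundant, had 26039, 25905 and 25960 FPKM on HFD, HFD+QG and HFD+EGCG, against 21590 on ND, and rose by 0.32 in the additive fit (SE 0.04; limma, adjusted p 0.0104). mt:CoII had 8057, 7814 and 8073 FPKM, against 5940 on ND, and rose by 0.40 (SE 0.05; limma, adjusted p 0.00908). The high-fat libraries lay within a few percent of each other for both. mt:ND4L (99, 240 and 303 FPKM, against 42 on ND) and its neighbour mt:ND6 (14, 20 and 10 FPKM, against 3 on ND) held 2-fold but spread widely. mt:CoI was listed at 0 on HFD and HFD+QG, at 15199 FPKM on HFD+EGCG and at 11765 FPKM on ND, a listing that cannot be read as an amount. Cyp4g1, an oenocyte P450, likewise was at 9726 FPKM on HFD, listed at 0 on HFD+QG and HFD+EGCG, and at 9209 FPKM on ND. In all, 48 of the 8363 genes were listed at 0 in some male library, 5 of the 22 higher and 2 of the 53 lower genes that held among them.

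Muscle genes were higher in the same libraries. Of 28 muscle genes 23 were above ND in all 3 libraries and 2 below, with medians of 0.40 on HFD, 0.19 on HFD+QG and 0.28 on HFD+EGCG, and 13 rose in the additive fit. In females the median was 1.14, against 0.31 in males, with all 28 above ND in all 3 female libraries. The additive count is therefore not one for males alone. The median male minus female change was -0.85, against 0.18 over all genes tested in both sexes. The troponin T gene up had 958, 828 and 818 FPKM on HFD, HFD+QG and HFD+EGCG, against 681 on ND, and the actin gene Act57B had 1515, 1331 and 1580 FPKM, against 1042 on ND. The myosin heavy chain gene Mhc had 516, 436 and 473 FPKM, against 423 on ND. Muscle is rich in mitochondria, and its part in the respiratory chain values was not tested.

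Genes that build proteins and break them down were mostly higher, also by small margins. Of 93 cytosolic ribosomal protein genes 85 were above ND in all 3 libraries and none below, with medians of 0.31 on HFD, 0.24 on HFD+QG and 0.42 on HFD+EGCG. RpL3 had 1088, 1048 and 1224 FPKM on HFD, HFD+QG and HFD+EGCG, against 902 on ND, and RpS6 had 1736, 1648 and 1853 FPKM, against 1404 on ND. HFD+EGCG was the highest high-fat library for 83 of the 93 genes and HFD+QG the lowest for 78, beside 20.8% and 19.8% of all genes. Of these genes 9 of 86 rose in the additive fit. Genes of ribosome biogenesis, a list added after the values were seen, had 26 of 31 members above ND in all 3 libraries and none below. Surf6, a nucleolar protein, had 15, 15 and 16 FPKM, against 8 on ND, Nop60B, the pseudouridine synthase of ribosomal RNA, had 30, 30 and 33 FPKM, against 17 on ND, and the fibrillarin gene Fib had 31, 31 and 32 FPKM, against 21 on ND. Of 72 mitochondrial ribosomal protein genes 66 were above ND in all 3 libraries and none below, with mRpL13 at 40, 39 and 42 FPKM against 33 on ND. Of 45 proteasome genes 30 were above and 1 below. The additive fit passed 2 of 30 ribosome biogenesis genes, 0 of 72 mitochondrial ribosomal genes and 0 of 31 proteasome genes as higher. That fit pools the sexes, and the list medians were 0.45, 0.29 and 0.18 in males, against -0.53, -0.32 and -0.26 in females. The core subunit gene Prosalpha3 had 182, 184 and 187 FPKM, against 145 on ND, while Prosbeta4R2, a duplicate known from testis, had 29, 29 and 19 FPKM, against 34 on ND.

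**Figure D4:**
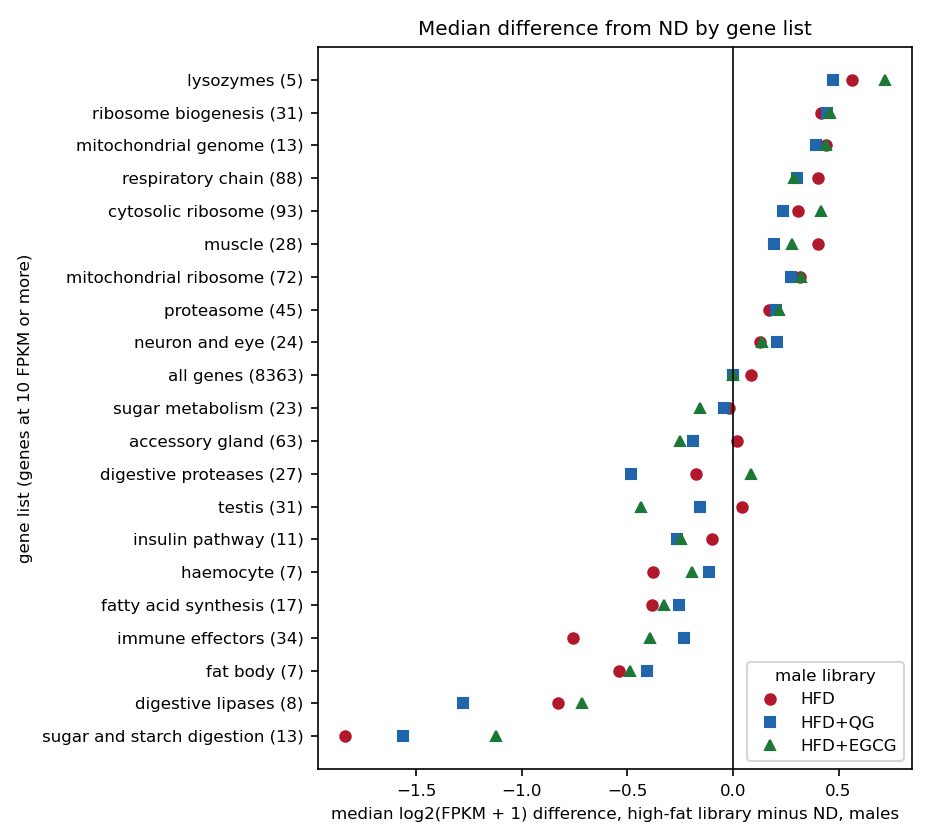
For each gene list, with the number of genes tested in parentheses, symbols give the median log2(FPKM + 1) difference from ND in the male HFD, HFD+QG and HFD+EGCG libraries. Sugar and starch digestion lies lowest in each library (-1.84, -1.56 and -1.12), while ribosome biogenesis (0.42, 0.45 and 0.46) and mitochondrial genome (0.44, 0.40 and 0.44) have narrow ranges above 0.

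Accessory gland genes, the other male reproductive list, had 29 of 63 members below ND in all 3 libraries and 6 above, with medians of 0.02 on HFD, -0.19 on HFD+QG and -0.25 on HFD+EGCG. Acp36DE, a seminal protein needed for sperm storage, had 500, 447 and 417 FPKM on HFD, HFD+QG and HFD+EGCG, against 786 on ND. Sfp96F stood out in 1 library, with 2332, 445 and 380 FPKM against 545 on ND. Markers of neurons and eye had a median of 0.13 on HFD, 0.21 on HFD+QG and 0.14 on HFD+EGCG. Of 17 egg genes, the single one that reached 10 FPKM in a male library was Yp3, at 12 FPKM in each high-fat library and 9 on ND.

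The same contrast in females shows which of the male differences have a counterpart. Female libraries on the high-fat diets differ from ND females in egg content as well, with the chorion gene Cp15 at 1, 180 and 291 FPKM on HFD, HFD+QG and HFD+EGCG, against 2057 on ND. Of the 22 genes that held higher in males, 20 could be tested in females, and there 13 were above ND in all 3 libraries, 1 below and 6 mixed, beside 33.4% above and 53.9% below among all 6123 genes. Of the 53 lower genes 43 could be tested, with 29 below ND in all 3 female libraries, 6 above and 8 mixed. The 2-fold rule was also met in females by 5 of the 20 and 15 of the 43, beside 5.65% higher and 0.702% lower among all genes. Another 2 of the 43 met it in the opposite direction. Of the genes that held in males, 10 of the 20 rose and 26 of the 43 fell in the additive fit, but that fit contains the male libraries by which these genes were chosen, so the counts are a description only.

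The difference between the sexes was tested as the interaction of sex and high-fat food, male minus female. It passed 1858 genes as higher (30.3%) and 1017 as lower (16.6%), a split that turned to 875 higher and 1419 lower when each library was centred on its median. Of the genes that held in males, 7 of 20 higher and 17 of 43 lower ones passed, beside 47% of all genes. In females the median of the immune effectors was 0.59, against -0.43 in males, with 22 of 33 above ND in all 3 female libraries. The interaction passed 14 of 33, all lower in males. DptA had 19, 37 and 12 FPKM on HFD, HFD+QG and HFD+EGCG, against 99 on ND, in males, and 137, 28 and 128 FPKM, against 13 on ND, in females (male minus female -4.74, SE 1.34; limma, adjusted p 0.0273). In each sex the 3 high-fat values lay on one side of the single ND value, below it in males and above it in females. That is common, with 34.7% of all genes above and 24.1% below in males. In females it was 33.4% above and 53.9% below among genes at 10 FPKM in each sex.

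The median of fatty acid synthesis genes was -0.37 in males and 0.26 in females, and the interaction passed 8 of 17 as lower in males and 1 as higher. Desat1 had 946, 1036 and 979 FPKM on HFD, HFD+QG and HFD+EGCG, against 1374 on ND, in males, and 752, 716 and 725 FPKM, against 531 on ND, in females (-0.94, SE 0.11; limma, adjusted p 0.0027). Thor was below ND in males and above it in females, where it had 717, 628 and 723 FPKM against 232 on ND (-1.91, SE 0.14; limma, adjusted p 0.00203). For ribosome biogenesis the male median was 0.45 and the female one -0.53, with 26 of 30 passing as higher in males. Mitochondrial ribosomal genes had a male median of 0.29 and a female one of -0.32, with 65 of 72 passing as higher in males, and proteasome genes 0.18 in males and -0.26 in females, with 29 of 31. After centring these counts were 22, 43 and 14, and 2 ribosome biogenesis genes passed as lower in males. Growing egg chambers are rich in these 3 kinds of transcript, and the part of the lower egg content of high-fat females in these differences was not tested. The respiratory chain had a male median of 0.34 and a female one of 0.42, and the carbohydrases -1.55 in males and -1.48 in females. The interaction passed 0 of 67 respiratory chain genes as deposited and 4 after centring, and 3 of 13 carbohydrase genes as deposited, with Mal-A3 lower in males and Amy-d higher. After centring 4 carbohydrase genes passed, all lower in males, and Amy-d did not (limma, adjusted p 0.0993).

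**Figure D5:**
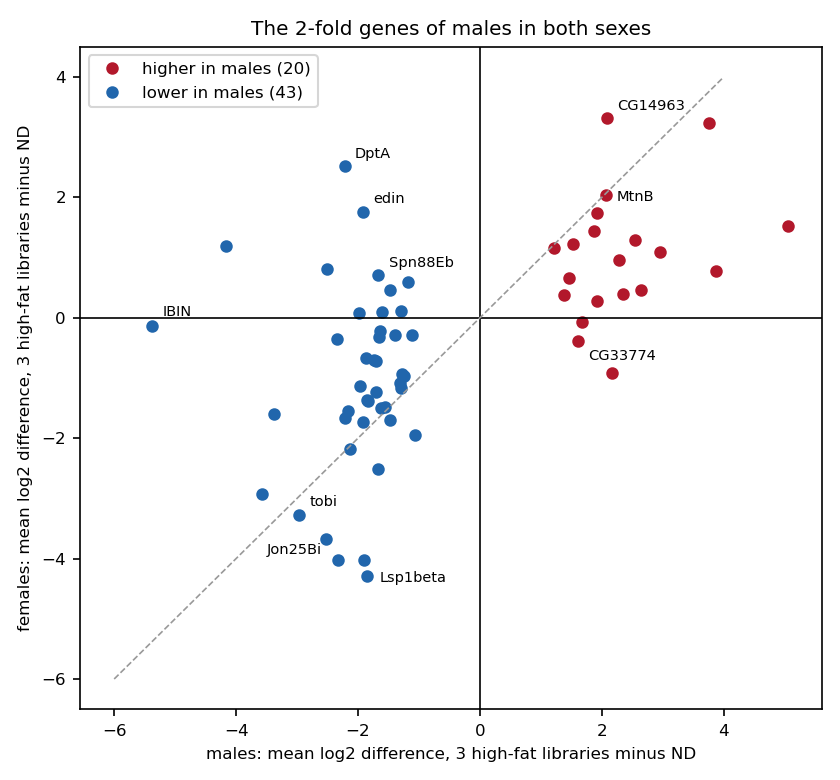
Each point is 1 of the 63 genes that held 2-fold in males and had at least 10 FPKM in each sex, placed by the mean log2 difference of the 3 high-fat libraries from ND in males (x axis) and in females (y axis), with the dashed line marking equality. DptA, edin and Spn88Eb lie below 0 in males and above 0 in females, while tobi and MtnB lie near the line.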

How the data were processed

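RNA was measured in 4 male and 4 female libraries, 1 per diet. Per the labels, total RNA was isolated with Isogen and sequenced from SureSelect libraries that keep the strand. The submitters' processing notes name CASAVA 1.8.2, TopHat2 2.1.1 and Cuffdiff 2.2.1, without their settings, and a genome build is not given in the sources used here. The deposited tables give FPKM per FlyBase transcript, which the authors had rounded to whole numbers, so they were handled as a score and not as counts. A gene listed at 0 may hold a small amount or a failed estimate, and no fold is given against it. Depth is unknown, so no counting interval can be given. Coordinates are those of the tables, whose gene starts and ends matched BDGP6.54 for 17286 of 17431 genes (99.2%). Gene symbols come from the reference's name table.

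From these values, 34475 transcripts were summed to 17655 genes and taken to log2 with a pseudocount of 1. A gene held when all 3 high-fat libraries were at least 2-fold from ND on the same side. limma 3.58.1 in R 4.3.3, with a trended prior and Benjamini-Hochberg adjustment at 0.05, fitted the 4 male libraries, and also an additive model of sex and high-fat food and their interaction over all 8. Nothing in the labels says that libraries stand for separate cultures, and p-values therefore cover no more than the spread between these libraries, which may be technical. The fits treat HFD, HFD+QG and HFD+EGCG as repeats. The steps were run on simulated data in which 200 genes were changed alike in both sexes and the high-fat libraries were true repeats. That setting is simpler than these data, so the run says nothing on how well the calls hold here. Alternatives were other FPKM filters, a pseudocount of 5, rescaled or median-centred libraries, a left-out library, genes listed at 0 removed, a fold of 1.5, single transcripts and limma without a trend.

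Named genes were the 15 held genes in each direction with the largest smallest-of-3 difference among protein-coding genes listed above 0 in all 4 male libraries (13 were eligible as higher), list members that held, and examples from each list. Members and gene lists were chosen with earlier results of these data known. The lists of ribosome biogenesis and of annotated protein domains were added after the values were seen. Of the list members, 4 were not found in the tables.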

Additional observations from a re-analysis of the deposited data

Results flagged for a closer look

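Of 89 named genes tested in both sexes, 32 passed the interaction of sex and high-fat food (limma, Benjamini-Hochberg adjusted p under 0.05), which is a difference between males and females in the high-fat change. The fit passed 47% of all genes tested. Each value below is the male minus the female log2 change, where a change is the mean of 3 high-fat libraries minus the single ND library of that sex. The fit assumes that both ND libraries vary like the high-fat ones. With libraries centred on their median, 30 of the 32 passed in the same direction, and Amy-d (0.82; limma, adjusted p 0.0993) and Hsc70-4 (0.28; 0.117) did not. No cause of these differences was tested.

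Immune and defence genes were below ND in males and not, or less, in females. The value was -5.24 for IBIN (adjusted p 0.0372), -4.74 for DptA (0.0273), -3.68 for edin (0.0171) and -2.38 for Spn88Eb (0.00671). edin had 1, 3 and 3 FPKM on HFD, HFD+QG and HFD+EGCG, against 11 on ND, in males and 15, 5 and 10 FPKM, against 2 on ND, in females.

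Storage and digestive genes had a larger fall in females for Lsp1beta (2.44; adjusted p 0.0203), CG34166 (2.12; 0.00912), Jon25Bi (1.70; 0.00813), Jon99Ci (1.14; 0.00767) and Amy-d (1.03; 0.0453). The lower level was larger in males, or absent in females, for Mal-A3 (-1.78; 0.0108), CG7953 (-1.69; 0.00613), CG8997 (-1.42; 0.0104) and CG3739 (-1.03; 0.0208). The lipase gene CG6295 was above ND in males and below it in females (1.67; 0.00245).

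In metabolism, the values were -1.91 for Thor (adjusted p 0.00203), -1.67 for FASN2 (0.00266), -0.94 for Desat1 (0.0027), -0.88 for fbp (0.00271) and -0.73 for Tps1 (0.0125). All but FASN2 were below ND in males and above it in females.

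Genes of protein synthesis and turnover were on average above ND in males and below it in females, with 1.61 for Surf6 (adjusted p 0.00203), 1.48 for Nop60B (0.00206), 1.13 for Fib (0.00327), 1.12 for Hsp83 (0.00654), 0.59 for mRpL13 (0.00522), 0.51 for Prosalpha3 (0.00723) and 0.49 for Hsc70-4 (0.0193). CG33774 had the same order, at 1.99 (0.00266).

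Higher in both sexes but more so in females were CG14963 (-1.24; adjusted p 0.0289), up (-1.04; 0.00609), MtnA (-0.74; 0.00445), Act57B (-0.74; 0.0136) and Mhc (-0.71; 0.0107).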

How the results depend on the processing

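With a filter of 1 FPKM, or none beyond being above 0, 107 genes held higher and 200 lower in males, the 75 of the stated rule among them, and limma over the male libraries passed 561 higher and 521 lower. These looser filters admit genes of a few whole-number FPKM, where rounding can make the high-fat values equal and their spread 0. The limma calls gained there carry that limit. With 1.5-fold, 80 and 160 genes held. Single transcripts gave 86 and 99, and protein-coding genes alone 14 higher. The male limma count moved to 6 higher and 23 lower after rescaling to a common sum, to 1 lower without a trend, and to 382 higher and 200 lower with all 8 libraries. The additive fit passed 237 higher at 1 FPKM. The interaction passed 1655 lower at 1 FPKM and 875 higher after centring. Leaving out each high-fat library in turn gave 25 to 36 genes held higher (36 without HFD+QG) and 72 to 94 lower (94 without HFD+EGCG), 3 to 6 proteases (6 without HFD) and 4 to 8 immune genes (8 without HFD+QG), since the rule then asks for fewer libraries. The 8 carbohydrases held lower stayed between 7 and 10. A changed FPKM filter or a left-out library cannot end a named gene's 2-fold call. In the other 3 alternatives, 135 of 147 repeats over 49 named genes kept it and none reversed. Under a pseudocount of 5, 8 missed it (Mal-A3, mt:ND6, Nepl4, CG1208, Obp99d, Ugt35C1, Obp83g and Cipc). After centring 3 did (Mal-A1, Obp99d and Obp83g), and after rescaling 1 (Obp83g). The median of digestive proteases changed sign in 1 alternative, to 0.01. ND has 1 male library, which cannot be left out. No paired analysis was possible because each group has a single library, so the groups share no more than the replicate number 1; sex is a term of the additive fit.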

Other observations

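Genes that burn or release fat had no common direction in males. Of 16 genes of fatty acid beta-oxidation, 6 were above ND in all 3 high-fat libraries and 6 below, with a median log2 difference of 0.01. CG3902, an acyl-CoA dehydrogenase gene of that list picked after its values were seen, had 129, 120 and 124 FPKM on HFD, HFD+QG and HFD+EGCG, against 183 on ND, and fell by 0.41 in the additive fit of both sexes (SE 0.09; limma, adjusted p 0.034). Of 6 lipolysis genes, 1 was above and 1 below, with a median of 0.05. Lysosomal alpha-mannosidases, which trim sugar chains inside cells, were below ND in all 3 libraries for the 4 of 6 genes that reached 10 FPKM in a male library, with medians of -0.71 on HFD, -0.33 on HFD+QG and -0.27 on HFD+EGCG, and none passed the additive fit.

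Of 14 antioxidant genes, 9 were above ND in all 3 libraries and 4 below, beside 34.7% and 24.1% of all genes. Their medians were 0.15, 0.18 and 0.19 on HFD, HFD+QG and HFD+EGCG. Clock genes had 2 of 10 above and 4 below. The list of genes with an S1A peptidase annotation, of which the digestive serine proteases are a part, was added after the values were seen. Over its 90 tested genes, 18 were above ND in all 3 libraries and 35 below. In it 1 gene held 2-fold higher and 5 lower, beside 0.263% and 0.634% of all genes.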
